A study of Mus musculus with 14 samples.

Results

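Pleiotrophin, midkine and the cell surface proteins known to bind them were examined in 14 mouse mammary tumors profiled by bulk RNA-seq. The set holds 9 of the 56414 genes listed, namely the ligand genes *Ptn* (pleiotrophin) and *Mdk* (midkine) and the receptor genes *Ptprz1*, *Alk*, *Sdc1*, *Sdc3*, *Sdc4*, *Lrp1* and *Ncl*. It was chosen by the counts of *Ptn*, which were lower in AT3 tumors given nicotinamide (NAM, a form of vitamin B3) than in untreated AT3 tumors, and the other members were added as its known partners. The levels of *Ptn* in AT3 tumors are therefore given as a description, without a test.

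All mice were C57BL/6 females. M/D-driven tumors arose in the mammary glands of mice that carried a pellet releasing medroxyprogesterone acetate (MPA), a synthetic progestin, and received 6 gavages of 7,12-dimethylbenz[a]anthracene (DMBA), a carcinogen. These mice were 6 to 9 weeks old when the pellet was placed. AT3 tumors grew from cells of the AT3 mammary carcinoma line injected under the skin, so that all of them descend from 1 cell line, and for the age of these hosts the methods give no more than the range over all mice of the study. Mice were randomized when tumors reached 0.25 cm2, and tumors were taken after 10 days without treatment or with NAM at 0.5% in the drinking water. The M/D model had 4 untreated and 4 treated tumors and the AT3 model 3 of each, with 1 library per tumor. Every M/D-driven tumor except NAM-treated tumor 1 (experiment 2) was placed in experiment 1 by the labels, and every AT3 tumor in experiment 3, so that the model and the experiment cannot be told apart.

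Pleiotrophin and midkine are small, secreted, heparin-binding growth factors, and together they form a family of their own. They bind sulfated glycosaminoglycan chains on cell surfaces and in the matrix, and act through several receptors rather than a single one. PTPRZ1 is a transmembrane tyrosine phosphatase that carries chondroitin sulfate chains and is inhibited when pleiotrophin brings it into clusters. Syndecans (SDC1, SDC3 and SDC4) are transmembrane proteoglycans that present these ligands on heparan sulfate. ALK is a receptor tyrosine kinase, LRP1 a large endocytic receptor, and nucleolin (NCL) an abundant nucleolar protein that also reaches the cell surface. In the mammary gland, heparan sulfate proteoglycans are found on epithelial and stromal cells and in the basement membrane.

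The 14 libraries held 40936868 to 84178009 reads assigned to genes. Values are normalized counts, i.e. reads on the constitutive exonic regions of a gene divided by a size factor of the tumor, and the 2 models had been normalized apart. A gene was tested when its mean reached 10 in at least 1 group. It was called when the limma fit of log2(normalized count + 1) gave a p of 0.05 or less before adjustment and the fold change reached 1.5 in either direction, the thresholds of the study's methods. SE is the standard error of a log2 fold change. Adjusted p values are Benjamini-Hochberg values of the same limma fits, computed over all genes tested. NAM-treated M/D-driven tumor 1, the tumor of experiment 2, stood apart: it had the lowest value of the 8 M/D-driven tumors for 8 of 8 epithelial markers, and their sum was 7218 in this tumor, against 254243 to 619228 in the other NAM-treated and 312381 to 1014360 in untreated M/D-driven tumors. Results in the M/D model are thus given with and without it. In AT3 tumors the change with NAM rose with transcript length across all genes (Spearman correlation 0.62 over 16429 genes, which are not independent), against −0.05 over 18460 genes in M/D-driven tumors. Results in the AT3 model are thus also given with the trend removed, i.e. after a spline in transcript length and GC content was subtracted from every tumor. In bulk tumors, fewer cells of a type and less RNA per cell cannot be told apart.

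All 9 genes passed the minimum in the M/D model and 8 did in the AT3 model, where *Alk* was close to 0. With NAM, *Ptprz1* was called lower in the M/D model and no other member was called (1 of 9), beside 6.22% of the 21700 genes tested (3.19% lower). In AT3 tumors *Sdc3* was called higher, as 1 of the 7 members tested there besides *Ptn*, beside 23.1% of the 19281 genes tested (12.2% higher). These counts are too small to be read as a result about the members as a group. The median log2 fold change over the members was 0.05 in M/D-driven tumors (0.01 over all genes) and, over the 7 members besides *Ptn*, 0.03 in AT3 tumors (−0.05 over all genes). With the trend removed, the median of these 7 members in AT3 tumors was −0.37 (0.01 over all genes).

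**Figure D1:**
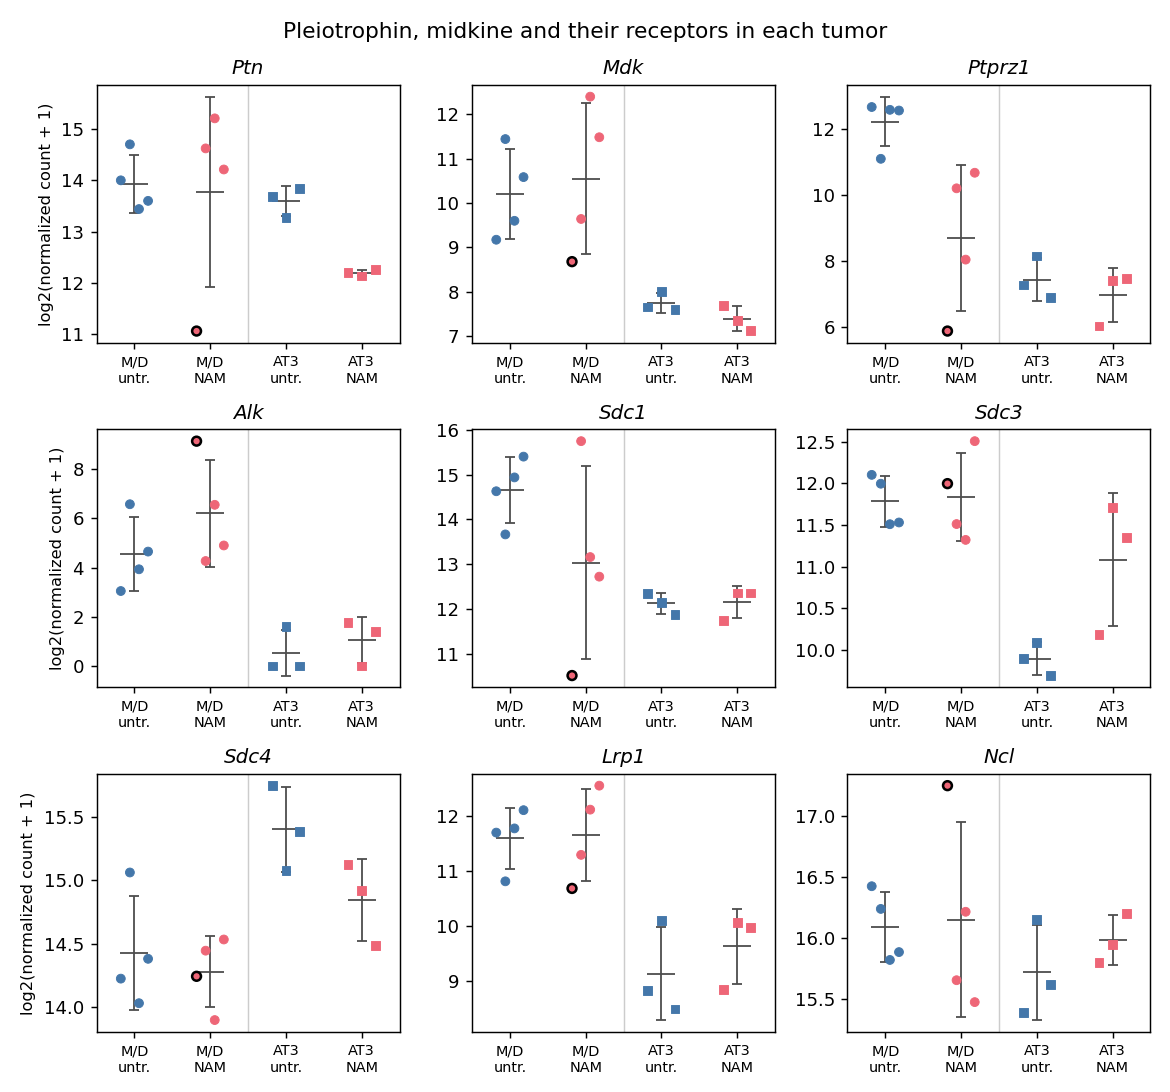
Level of each member in each tumor. The vertical axis is log2(normalized count + 1) on its own range per gene, each point is 1 tumor (circles, M/D; squares, AT3; blue, untreated; red, NAM-treated), the black ring marks NAM-treated M/D-driven tumor 1, and bars are the mean and SD of the log2 values. Untreated and NAM-treated values are apart for *Ptprz1* in the M/D model (as for 4.43% of the genes tested) and for *Ptn* and *Sdc3* in the AT3 model (as for 22.6%). The models were normalized apart.

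*Ptn* (GSMG0032877, mm10 chromosome 6, 36714928 to 36811361) encodes pleiotrophin. In untreated AT3 tumors its normalized counts were 13221, 9925 and 14653, and in NAM-treated AT3 tumors they were 4707, 4488 and 4895. The lowest untreated tumor thus lay above the highest NAM-treated one. Groups did not overlap for 22.6% of the genes tested in this model, and *Ptn* was chosen by these same values. The treated tumors were close to each other, with a mean of 4697 ± 204 (SD, n = 3) against 12600 ± 2425 (SD, n = 3) without NAM. The log2 fold change of *Ptn* was −1.41 (SE 0.21), and 4.15% of the genes tested had a lower one. Genes with transcripts of like length (a ratio of at most 1.2) had a median log2 fold change of −0.02 in AT3 tumors. With the trend in length and GC content removed, *Ptn* was at −1.21 (SE 0.14), with 2.92% of genes lower. Leaving out each AT3 tumor in turn gave −1.57 to −1.29.

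Among M/D-driven tumors, *Ptn* was at 16391, 26680, 11113 and 12413 without NAM and at 2131, 25255, 37921 and 18984 with NAM. NAM-treated tumor 1 was the lowest of the 8 tumors and NAM-treated tumor 3 the highest, so that the treated group enclosed the untreated one. The log2 fold change was −0.16 (SE 0.83, adjusted p = 0.98 by limma), and within experiment 1, i.e. without NAM-treated tumor 1, it was 0.75 (SE 0.36, adjusted p = 0.81 by limma). Neither was called. The difference between the models in the change with NAM was −1.25 (SE 1.02; AT3 minus M/D, on the log2 scale), and it is given as a description. On a single scale over the 14 tumors, the group means of *Ptn* in the M/D model were 19389 ± 13752 (SD, n = 4) with and 15476 ± 6725 (SD, n = 4) without NAM. Those in the AT3 model were 15466 ± 3279 (SD, n = 3) without and 5540 ± 267 (SD, n = 3) with NAM. In this order, the first 3 groups overlapped and were within 1 SD of their neighbors, while the 3 NAM-treated AT3 tumors (5232 to 5705) lay below the untreated tumors of either model.

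*Mdk* (GSMG0023185, chromosome 2, 91929805 to 91932297) encodes midkine, the only other member of the ligand family. Its counts in AT3 tumors were 200, 255 and 191 without NAM and 205, 163 and 139 with NAM, and the groups overlapped. The log2 fold change was −0.36 (SE 0.28, adjusted p = 0.44 by limma), but its transcript is short (1054 bases), and genes of like length had a median of −0.66. After removal of the trend, *Mdk* was at 0.18 (SE 0.26). M/D-driven tumors had 574, 2777, 773 and 1531 without NAM and 407, 795, 5392 and 2857 with NAM. This spread, with treated tumors both below and above all untreated ones, left a log2 fold change of 0.35 with a SE of 0.85 (adjusted p = 0.94 by limma). Without NAM-treated tumor 1 it was 0.98 (SE 0.76, adjusted p = 0.85 by limma) and not called either. Hence, *Mdk* was not called with NAM in either model.

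*Ptprz1* (GSMG0031567, chromosome 6, 22875500 to 23052916), the phosphatase receptor, had the largest change of the members with NAM in M/D-driven tumors. Its counts were 6493, 2187, 6121 and 6032 without NAM and 57.7, 1176, 262 and 1632 with NAM. The groups did not overlap, which held for 4.43% of the genes tested in this model, although untreated tumor 2 was closer to the treated tumors than to the other untreated ones. This made a log2 fold change of −3.53 (SE 1.00, adjusted p = 0.73 by limma), and 1.4% of the genes tested had a lower one. An exact two-sided permutation test of this gene alone gave p = 0.029, the smallest that its 70 splits allow. Without NAM-treated tumor 1 the log2 fold change was −2.59 (SE 0.68, adjusted p = 0.81 by limma) and was still called, and the exact permutation test gave p = 0.057 over 35 splits. The call was made with each tumor left out in turn (−4.19 to −2.59) and with each other setting tried, none of which gave an adjusted p below 0.10.

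Epithelial markers were set beside *Ptprz1* in M/D-driven tumors. Their median log2 fold change with NAM was −1.27 in this model, where 0 of 8 were called, and −0.18 without NAM-treated tumor 1, where 1 of 8 was called (*Cdh1*, lower). Within experiment 1, the summed epithelial level was 254243 to 619228 in NAM-treated and 312381 to 1014360 in untreated tumors. Markers of Schwann cells, which are glia of peripheral nerves and a cell type in which this family of ligands and receptors is known, summed to 1977 to 10269 with NAM and 3501 to 10081 without (0 of 6 called). Markers of adipocytes summed to 51195 to 156065 with NAM and 35270 to 96060 without (1 of 6 called, *Adipoq*, higher), and those of skeletal muscle to 1166 to 247929 with NAM and 185 to 27276 without (1 of 6 called, *Myh4*, higher). No marker of these lists was at 0 in a whole group. The part of these cell types in the level of *Ptprz1* was not tested.

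**Figure D2:**
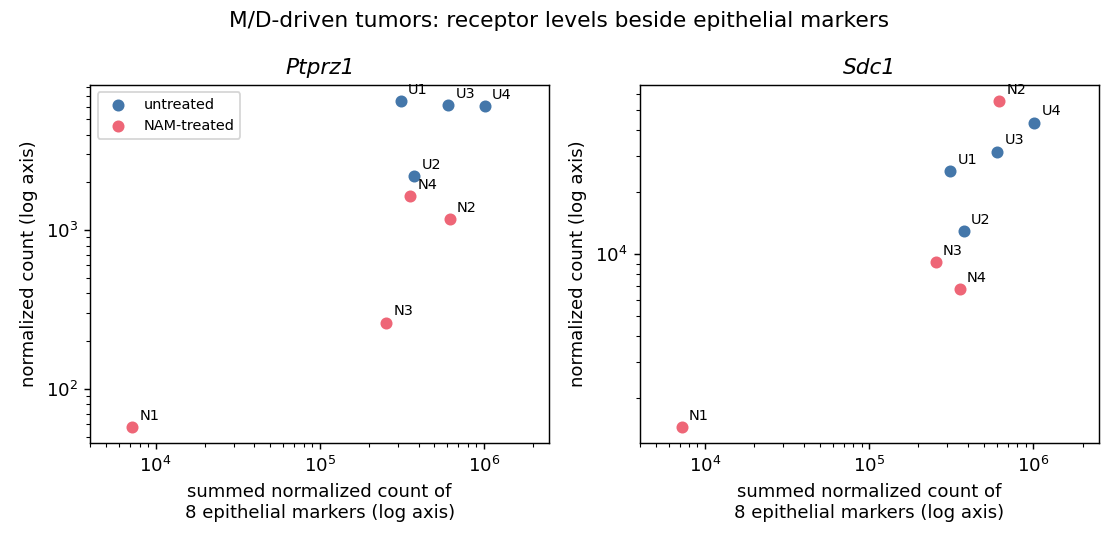
*Ptprz1* (left) and *Sdc1* (right) in the 8 M/D-driven tumors, as normalized counts, against the summed normalized counts of 8 epithelial markers, all on log axes. Each point is 1 tumor, labelled U (untreated) or N (NAM-treated) with its number. N1 is far below the others in epithelial markers. The part of epithelial cells in the levels of both genes was not tested.

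In AT3 tumors *Ptprz1* was low, with counts of 154, 283 and 117 without NAM and 64.4, 168 and 176 with NAM, and the groups overlapped. Its log2 fold change was −0.47 (SE 0.48, adjusted p = 0.54 by limma). With its transcript of 8068 bases it belongs to a class of long genes whose median was 0.74 in these tumors, and relative to the trend *Ptprz1* was lower with NAM (log2 fold change −1.15, SE 0.33, adjusted p = 0.16 by limma), as a call gained with the trend removed. The change in AT3 tumors exceeded that in M/D-driven tumors by 3.06 on the log2 scale (SE 1.29, adjusted p = 0.30 by limma). It passed the threshold of 0.05 before adjustment, as it did without NAM-treated M/D-driven tumor 1 (2.12). It did not pass with the trend removed (2.33), by edgeR (2.33), or when any 1 of 8 of the 14 tumors was left out (untreated tumors 1, 3 and 4 and NAM-treated tumor 3 of the M/D model, and untreated tumors 1 and 3 and NAM-treated tumors 2 and 3 of the AT3 model), where it was 2.78 to 2.98.

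*Alk* (GSMG0050934, chromosome 17, 71868988 to 72604629), the receptor tyrosine kinase, had the lowest level per transcript length of the 9 genes in each group. Its counts in the M/D model were 7.27, 94.5, 14.3 and 24.1 without NAM and 564, 18.3, 93.0 and 28.9 with NAM. A single tumor, NAM-treated tumor 1, was above all others, and the remaining treated tumors lay within the untreated range. The log2 fold change was 1.66 (SE 1.17, adjusted p = 0.78 by limma), and 0.69 without that tumor. *Alk* was listed with 2 reads over the 3 untreated AT3 tumors and 4 reads over the 3 treated ones, a depth at which no change can be seen, and it was not tested there.

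*Sdc1* (GSMG0007826, chromosome 12, 8771354 to 8793688) encodes syndecan-1, the main syndecan of epithelial and plasma cells. Its counts in M/D-driven tumors were 25352, 12988, 31420 and 43350 without NAM. With NAM they were 1457, 55098, 9142 and 6748. NAM-treated tumors 1, 3 and 4 were therefore below each untreated tumor while NAM-treated tumor 2 was above them all, and the log2 fold change of −1.62 (SE 0.97) did not pass the test (adjusted p = 0.75 by limma). Without NAM-treated tumor 2 it was −2.53 and was called (adjusted p = 0.32 by limma), while leaving out NAM-treated tumor 1 instead gave −0.78. The lowest tumor was also the one with few epithelial transcripts, and plasma cell markers summed to 18871 to 61014 with NAM and 27029 to 64276 without. In AT3 tumors *Sdc1* was at 5203, 4541 and 3739 without NAM and at 3441, 5236 and 5233 with NAM, and the log2 fold change was 0.03 (SE 0.24).

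*Sdc3* (GSMG0027151, chromosome 4, 130792537 to 130826318), the gene of the syndecan best known from neural tissue, was higher with NAM in AT3 tumors. Counts were 958, 1087 and 828.6 without NAM and 1164, 3359 and 2608 with NAM. The groups did not overlap (as for 22.6% of the genes tested), but NAM-treated tumor 1 was much closer to the untreated tumors than to the other treated ones. It had a log2 fold change of 1.19 (SE 0.37, adjusted p = 0.17 by limma, 0.14 by edgeR and 0.014 by DESeq2), and it was 0.87 to 1.64, with a call each time, when any of the 6 tumors was left out (adjusted p = 0.014 by limma without NAM-treated tumor 1 and 0.068 to 0.55 without another). Small adjusted p values were common in some of these runs. Genes within 0.05 numbered 2047 of 19281 by DESeq2, against 0 by edgeR and 1 in the main limma fit. Without NAM-treated tumor 1, limma had 2498 such genes of 19301. For *Sdc3*, the exact two-sided permutation test gave p = 0.1, the smallest that 3 tumors against 3 allow. Genes of like length (around 4973 bases) had a median of 0.51, and with the trend removed *Sdc3* was at 0.53 (SE 0.23, adjusted p = 0.24 by limma) and was no longer called.

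Markers of cell types were set beside *Sdc3* in the AT3 model, where 12.2% of all genes were called higher (7.13% with the trend removed). Of the endothelial markers 4 of 6 were called higher and 1 lower (sums of 6601 to 9204 with NAM and 4941 to 6287 without), and 3 of 5 pericyte markers were called higher (8492 to 9413 and 5801 to 7501). Among leukocyte markers 3 of 7 were called higher and 1 was called lower. Their sums overlapped (24022 to 38281 with NAM and 18025 to 57034 without), and the median sum was lower with NAM (28107 against 42154). Fibroblast sums overlapped as well (112128 to 307759 and 70774 to 219999, with 2 of 8 markers called higher). Epithelial markers had 1 of 8 called higher and 2 lower, adipocyte markers 0 of 6 higher and 1 lower, and Schwann cell markers 1 of 6 higher and 0 lower. No muscle or plasma cell marker was called. With the trend removed, 2 endothelial, 0 pericyte, 1 leukocyte, 2 fibroblast, 1 Schwann cell and 0 epithelial markers were called higher. Their part in the level of *Sdc3* was not tested.

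M/D-driven tumors had *Sdc3* at 4393, 4081, 2915 and 2957 without NAM and at 4084, 2919, 2559 and 5812 with NAM, a log2 fold change of 0.05 (SE 0.29), or −0.0046 without NAM-treated tumor 1. The change differed between the models by 1.14 (AT3 minus M/D, SE 0.50, adjusted p = 0.32 by limma), and by 0.35 (adjusted p = 0.81 by limma) with the trend removed. It was 0.82 to 1.14 and no longer past the threshold when any 1 of 8 tumors was left out (untreated tumors 1 and 2 and NAM-treated tumors 2 and 3 of the M/D model, and the same AT3 tumors as for *Ptprz1*). *Sdc3* and *Ptprz1* were the only members of the 8 besides *Ptn* whose change with NAM differed between the models at this threshold, beside 14.9% of the 22710 genes tested by limma. With the trend removed 0 of 8 did (beside 10.2% of genes), and no gene of the whole table passed an adjusted p of 0.05 in the main limma fit (3387 genes were at or under 0.05 before adjustment, and after it edgeR gave 0 genes and DESeq2 834).

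*Sdc4* (GSMG0023858, chromosome 2, 164424247 to 164443188) encodes syndecan-4, a proteoglycan of focal adhesions present in most cells. In AT3 tumors its counts were 55077, 34639 and 42792 without NAM and 35700, 31018 and 22959 with NAM. The groups overlapped through untreated tumor 2, and the log2 fold change was −0.56 (SE 0.26, adjusted p = 0.22 by limma). Without that tumor it was −0.72 and was called (adjusted p = 0.070 by limma). With the trend removed and no tumor left out, it was −0.47 and was not called. The counts in the M/D model were 19142, 34235, 16733 and 21337 without NAM and 19388, 22310, 15257 and 23719 with NAM, and all treated values lay near the untreated ones (log2 fold change −0.14, SE 0.26, or −0.13 without NAM-treated tumor 1).

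*Lrp1* (GSMG0004748, chromosome 10, 127538194 to 127621149) encodes an endocytic receptor that also clears proteases from the cell surface. Its counts in AT3 tumors were 451, 1092 and 358 without NAM and 459, 1070 and 1009 with NAM. The log2 fold change of 0.50 (SE 0.47, adjusted p = 0.51 by limma) was below the median of 0.78 for the few genes with transcripts as long (113 genes near 14888 bases), and with the trend removed it turned to −0.49 (SE 0.17, adjusted p = 0.17 by limma), short of the fold threshold. Without untreated tumor 2 the value on the deposited scale was 0.98 and was called (adjusted p = 0.10 by limma). Within the M/D model *Lrp1* was at 3335, 1801, 3517 and 4429 without NAM and at 1647, 2517, 4459 and 6038 with NAM (log2 fold change 0.06, SE 0.45). Without NAM-treated tumor 1 it was 0.39 and not called.

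*Ncl* (GSMG0001857, chromosome 1, 86344719 to 86359455), the gene of nucleolin and a marker of ribosome production, was variable in M/D-driven tumors. Its counts there were 88001, 77352, 57878 and 60526 without NAM and 155852, 51583, 76110 and 45546 with NAM, so that NAM-treated tumor 1 had the highest value. The log2 fold change was 0.06 (SE 0.38), and −0.31 without that tumor. In AT3 tumors the counts were 42882, 72721 and 50294 without NAM and 57059, 63060 and 75364 with NAM (log2 fold change 0.26, SE 0.26). With the trend removed this value turned to −0.37 (adjusted p = 0.27 by limma). Values of *Ncl* with the trend removed rest on a transcript of 8202 bases, the longest coding one in GENCODE. They could differ with a shorter one.

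**Figure D3:**
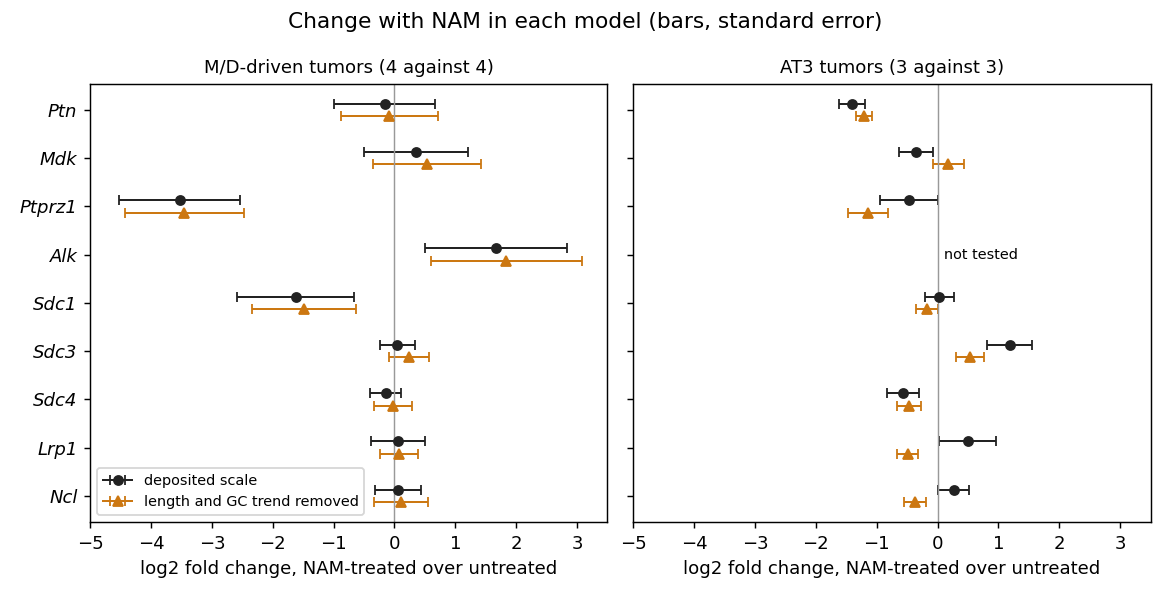
Log2 fold change with NAM (horizontal axis, NAM-treated over untreated) of each member in M/D-driven (left) and AT3 tumors (right), with the standard error as a bar. Black circles are on the deposited scale and orange triangles are after removal of the trend with transcript length and GC content. In the AT3 model *Sdc3* goes from 1.19 to 0.53 and *Ptprz1* from −0.47 to −1.15, whereas in the M/D model both versions are close for each gene.

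**Figure D4:**
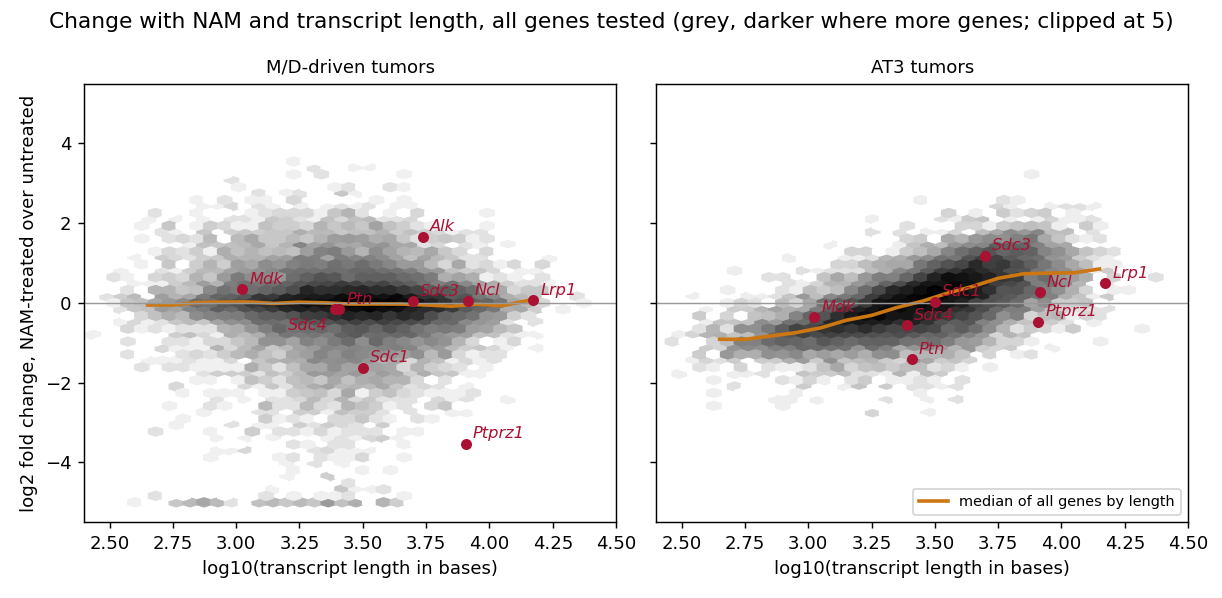
Log2 fold change with NAM against log10 transcript length for all genes with a length (grey density, darker for more genes, values beyond 5 in size drawn at 5) in M/D-driven (left) and AT3 tumors (right). The orange line is the median of all genes by length and red points are the members. In AT3 tumors the median rises with length (Spearman correlation 0.62). *Ptn*, *Ptprz1*, *Sdc1*, *Sdc4*, *Lrp1* and *Ncl* are below the median of genes of like length there, and *Sdc3* and *Mdk* are above it. The place of *Ncl* rests on a transcript of 8202 bases, the longest coding one in GENCODE.

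The members were also compared between untreated M/D-driven and untreated AT3 tumors, on values brought to a single scale. The models differ in how tumors arise, in their site and in the experiment, so that no difference can be tied to any 1 of these. Of the 8 members besides *Ptn*, 7 were called, 6 higher and 1 lower in M/D-driven tumors, beside 56.5% of the 21713 genes tested (30.1% higher and 26.4% lower). With the trend in length and GC content removed, the genes called were divided otherwise (21.5% higher and 35.9% lower, 57.3% in all) and the median over all genes went from 0.04 to −0.35. The removal also gave these tumors the same mean over genes, and the part of this step in gained or lost calls was not tested.

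*Ptprz1* differed most, with a mean of 4814 ± 1849 (SD, n = 4) in untreated M/D-driven and 224 ± 100 (SD, n = 3) in untreated AT3 tumors. This is a log2 difference of 4.39 (SE 0.43, adjusted p = 0.00019 by limma), or 3.15 with the trend removed. *Sdc1* was higher by 2.14 (SE 0.37, adjusted p = 0.0020 by limma) and *Mdk* by 2.05 (SE 0.50, adjusted p = 0.0095 by limma), and both were still called with the trend removed (1.45 and 2.11). *Sdc4* was the single member that was lower in M/D-driven tumors, with a mean of 21245 ± 7507 (SD, n = 4) against 54220 ± 13579 (SD, n = 3) and a log2 difference of −1.38 (SE 0.30, adjusted p = 0.0058 by limma; −1.70 with the trend removed). *Sdc3* (1.49, adjusted p = 0.000945) and *Lrp1* (2.07, adjusted p = 0.0039) were higher by limma on the common scale. Both lost their call with the trend removed (0.28 and 0.32, beside a median of −0.35 over all genes).

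*Alk* was called higher in M/D-driven tumors (adjusted p = 0.010 by limma). It had 143 reads over the 4 untreated M/D-driven tumors and 2 reads over the 3 untreated AT3 tumors, a ratio of 35.3 after scaling, with an exact 95% interval of 9.58 to 294 that covers counting error only. Of the 143 reads, 87 were from untreated tumor 2, and without it the ratio was 17.3 (4.58 to 147). The log2 difference in the limma fit was 3.86, and it was 3.18 to 4.45 with a call each time when any 1 tumor was left out. *Ncl* was alike on the common scale (−0.03, SE 0.27), but was lower in M/D-driven tumors with the trend removed (−1.17, adjusted p = 0.0049 by limma). The latter value rests on its transcript of 8202 bases and could differ with a shorter one. *Ptn* itself had about the same level in both, with a log2 difference of −0.07 (SE 0.33), against −0.21 (SE 0.34) with the trend removed. Epithelial markers, which summed to 312381 to 1014360 in untreated M/D-driven and 81642 to 101481 in untreated AT3 tumors, and Schwann cell markers (3501 to 10081 and 272 to 365) were also higher in the M/D model, each on the scale of its model, and their part in these differences was not tested.

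**Figure D5:**
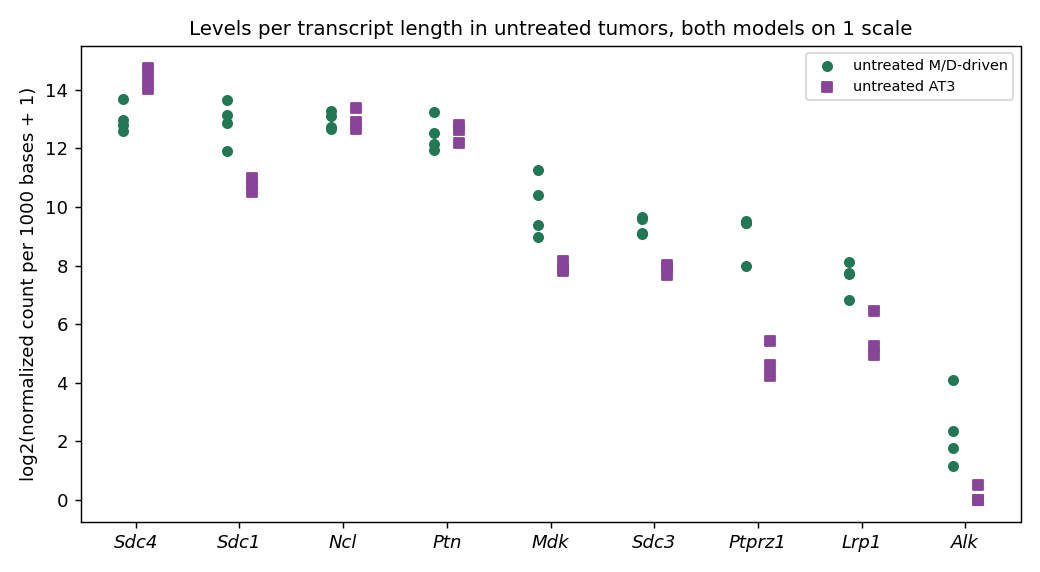
Levels of the members in untreated M/D-driven (green circles) and untreated AT3 tumors (purple squares), as log2(normalized count per kb of transcript + 1) with both models on 1 scale. Each point is 1 tumor and genes are ordered by their mean in the M/D model. *Ptn* and *Ncl* overlap between models, whereas *Sdc1*, *Mdk*, *Ptprz1* and *Alk* are higher and *Sdc4* is lower in M/D-driven tumors.

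Per kb of transcript, a scale on which genes can be set against each other, untreated M/D-driven tumors had most *Sdc4* (8643 ± 3054, SD, n = 4), *Sdc1* (8288 ± 3700), *Ncl* (8020 ± 1639) and *Ptn* (6050 ± 2629). These 4 genes were within 1 SD of their neighbors in the order. *Mdk* (1250 ± 895), *Sdc3* (669 ± 145), *Ptprz1* (597 ± 229), *Lrp1* (203 ± 67.3) and *Alk* (6.00 ± 6.95) came next, with *Mdk*, *Sdc3* and *Ptprz1* within 1 SD (the larger of the pair) of their neighbors in this order. In untreated AT3 tumors *Sdc4* stood alone at the top (22059 ± 5524, SD, n = 3), above *Ncl* (8217 ± 2104) and *Ptn* (6046 ± 1282), whereas *Sdc1* (1742 ± 289), *Mdk* (249 ± 33.7), *Sdc3* (235 ± 27.1), *Lrp1* (51.6 ± 31.2) and *Ptprz1* (27.8 ± 12.4) were low. Of these neighbors, *Mdk* and *Sdc3* were within 1 SD of each other, as were *Lrp1* and *Ptprz1*. NAM-treated AT3 tumors had 2166 ± 104 of *Ptn* per kb. The level of *Ncl* rests on a transcript of 8202 bases, the longest coding one in GENCODE, and would be higher with a shorter one.

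As to ligands, *Ptn* exceeded *Mdk* in every group. On the scale per kb, the means of *Ptn* and *Mdk* were 7580 and 2046 in NAM-treated M/D-driven tumors and 2166 and 190 in NAM-treated AT3 tumors. The genes most like *Ptn* across the 14 tumors, by the Pearson correlation of log2(normalized count + 1) centred within each model and among 18271 genes, were *Schip1* (0.96), *Morn4* (0.94), *Tnnc1* (0.94), *L3hypdh* (0.93) and *Rab13* (0.93). Within the models the correlation with *Ptn* ranged over these genes from 0.93 to 0.99 in M/D-driven tumors and from 0.75 to 0.95 in AT3 tumors. Those most like *Mdk* were *Slc9a3r2* (0.94), *Slc2a4* (0.93), *Arl4d* (0.92), *Megf6* (0.92) and *Rspo1* (0.90). Within the models, their correlation with *Mdk* was 0.91 to 0.95 in M/D-driven tumors and 0.23 (*Arl4d*) to 0.80 (*Slc2a4*) in AT3 tumors. The tumors shared treatment and NAM-treated tumor 1 was far from the rest, so these correlations are descriptions.

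Other genes of the pathway were counted in 5 lists that hold 91 genes found in the table. In the M/D model 90 of them were tested, 1 was higher and 6 were lower with NAM (7.78% called, beside 6.22% of all genes). In AT3 tumors 84 were tested, 23 were higher and 4 lower (32.1%, beside 23.1% of all genes), and with the trend in length and GC content removed 12 were higher and 3 lower (17.9%, beside 14.6%). The median log2 fold change of these genes in AT3 tumors was 0.41 on the deposited scale and 0.14 with the trend removed. The count of 23 rested on single tumors: leaving out treated tumor 3 gave 11, treated tumor 2 gave 12, untreated tumor 1 or 3 gave 15, untreated tumor 2 gave 35 and treated tumor 1 gave 38. Likewise, the 6 genes lower in M/D-driven tumors were 2 without untreated tumor 4 and 10 without NAM-treated tumor 2. Over single lists, the shares called higher in AT3 tumors are to be read beside 12.2% of all genes (7.13% with the trend removed), and those of glycosaminoglycan enzymes (3 of 24) and growth factors (2 of 13) were near it.

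Further receptors and ligands of the pathway (integrins, LDL receptor relatives, NOTCH2, matrix ligands and the phosphatase PTPRG, the closest relative of PTPRZ1) had 9 of 18 genes called higher and 0 lower with NAM in AT3 tumors. The largest changes were those of the integrin gene *Itga4* (log2 fold change 1.77, SE 0.41), *Tnc* (1.71, SE 0.65), which encodes the matrix protein tenascin C, *Lrp6* (1.48, SE 0.53), a co-receptor of WNT proteins, and *Notch2* (1.45, SE 0.63). With the trend removed 4 of 18 were called, *Itga4* and *Lrp6* among them but neither *Tnc* nor *Notch2*. In the M/D model *Tnc* (−1.91, SE 0.64) and *Notch2* (−0.76, SE 0.30) were instead lower, and *Ltk*, the kinase closest to *Alk*, was higher (1.89, SE 0.73), as 3 of 22 genes called. Without NAM-treated M/D-driven tumor 1, *Tnc* was still called (−1.32), whereas *Notch2* (−0.55) and *Ltk* (1.36) were not. *Tnc* counts were 4567 to 6386 without NAM and 398 to 4443 with NAM in this model, and 423 to 1500 without NAM and 932 to 5681 with NAM in AT3 tumors. The change of *Tnc* differed between the models by 3.62 (SE 1.03, adjusted p = 0.20 by limma), or by 2.72 with the trend removed, and passed the threshold of 0.05 before adjustment both times.

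Signalling partners, i.e. proteins that bind the cytoplasmic tails of these receptors or act below them, had 6 of 20 genes higher and 1 lower in AT3 tumors, and 0 higher and 2 lower in M/D-driven tumors. *Arhgap35* (log2 fold change 1.63, SE 0.49), *Ptpn11* (1.38, SE 0.38), which encodes the phosphatase SHP2, *Magi3* (1.24, SE 0.36) and *Magi1* (0.96, SE 0.39), 2 scaffold genes, rose most in AT3 tumors, and *Arhgap35* and *Ptpn11* were the 2 still called with the trend removed. *Sdcbp2*, which encodes a syntenin that binds syndecan tails, was lower in both models, with a log2 fold change of −3.20 (SE 0.73, adjusted p = 0.73 by limma) in M/D-driven tumors and −0.81 (SE 0.35) in AT3 tumors. Its counts in M/D-driven tumors were 1186 to 4564 without NAM and 66.2 to 660 with NAM. Its call was made without NAM-treated tumor 1 in the M/D model but was lost with the trend removed in the AT3 model.

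Enzymes that make or edit heparan and chondroitin sulfate had 3 of 24 genes higher and 2 lower in AT3 tumors, and 0 higher and 1 lower (*Sulf1*, an extracellular sulfatase, −1.08, SE 0.44) in M/D-driven tumors, where it was −0.98 and not called without NAM-treated tumor 1. The sulfotransferase genes *Hs6st2* (2.01, SE 0.48), at low counts (7.25 to 14.7 without and 44.6 to 57.4 with NAM), and *Ndst1* (1.69, SE 0.48) rose most in AT3 tumors and were still called with the trend removed. Among genes that shed syndecans or limit shedding, 3 of 9 were higher with NAM in AT3 tumors on both scales, namely *Mmp9* (1.1, SE 0.32), *Adam10* (1.06, SE 0.26) and *Adam17* (1.03, SE 0.29). With the trend removed 1 was also called lower there (*Timp3*), whereas 0 of 10 were called in M/D-driven tumors. The change of *Adam17* differed between the models by 1.48 (SE 0.32, adjusted p = 0.18 by limma). Other heparin-binding growth factors had 2 of 13 genes higher in AT3 tumors (*Fgf2*, 2.21, SE 0.95, and *Hgf*, 1.23, SE 0.44) and 1 lower (*Fgf1*, −0.83, SE 0.21), and 1 of 14 lower in M/D-driven tumors (*Fgf2*, −1.03, SE 0.36). *Fgf2* was at 0 to 9.77 counts without NAM and 15.1 to 22.3 with NAM in AT3 tumors and lost its call there with the trend removed. After that removal *Vegfa* was called lower in AT3 tumors in addition, and in M/D-driven tumors *Pdgfb* was called lower instead of *Fgf2*. The change of *Fgf2* differed between the models by 3.23 (SE 0.94, adjusted p = 0.20 by limma), or by 2.70 with the trend removed. No gene of the 5 lists passed an adjusted p of 0.05 in the main limma fits (the lowest was 0.17 in AT3 tumors and 0.73 in M/D-driven tumors).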

How the data were processed

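Bulk RNA-seq of polyA RNA was analysed from 14 tumors, grouped by the sample labels, with 1 library per tumor. The authors mapped reads with STAR 2.4.0 on mm10, counted them on the constitutive regions of Mouse FAST DB genes and divided them by a DESeq2 size factor per tumor, in each model apart, so that the deposited values are a normalized signal (normalized counts). Their filter on expressed genes was not applied to the table, in which 19524 of 56414 genes were at 0 in all tumors and 30657 had no symbol. All 14 columns of values were mapped to a tumor and 0 were left. Values were whole multiples of 1 step per tumor (100% within 0.05 of a whole read), which gave back reads for tests on counts and for the common scale of both models (median-ratio size factors over 14 tumors). The highest correlation between 2 tumors was 0.986, below that of identical libraries.

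Models were fitted with limma 3.58.1 (R 4.3.3, mean-variance trend) on log2(normalized count + 1), which understates changes of low genes, for genes with a mean of at least 10 in 1 group. Calls used the thresholds of the study's methods, with p taken as unadjusted. The difference of the NAM effect between models was an interaction term, called at p of at most 0.05. Single genes were also compared by exact two-sided permutation tests. Other settings were pseudocounts of 0.5 and 5, genes with any read or a minimum mean of 50, TMM factors, edgeR 4.0.16, DESeq2 1.42.0, removal of each tumor's trend in transcript length and GC content (splines with 4 degrees of freedom, longest coding transcript in GENCODE vM21, found for 83.3 to 85.2% of genes tested), blocking on the replicate number, a single fit of 14 tumors, experiment 1 only, and each tumor left out in turn. Removal of the trend in experiment 1 only, or in experiments 1 and 3 only, was added after the data were seen. The fits were tested on simulated data. No statement says that tumors came from separate cages or cohorts beyond the experiment numbers, and p values measure the spread between tumors.

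The members and gene lists were chosen with earlier results of these data known. Named genes are the 9 members, the 5 genes most correlated with *Ptn* and with *Mdk*, at most 4 called genes per list and model (largest first) and at most 2 markers per list. Sequences of the encoded proteins were not used here. Plots were drawn with matplotlib 3.10.9 from tables made with Python 3.11.15, pandas 2.3.3, numpy 2.4.6 and scipy 1.17.1.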

Additional observations from a re-analysis of the deposited data

Results flagged for a closer look

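Each of the 9 genes was looked at in both groups of 4 M/D-driven tumors. In 3 of these 18 groups, 1 value lay far from the other 3 tumors. The gap was above 0.829 of the whole range of normalized counts, Dixon's critical value. By chance this rule flags about 1 in 20 groups when values are normal and independent. The counts were not put on the log2 scale and the groups share tumors, so 3 of 18 cannot be compared with that rate. *Ptprz1* was at 2187 in untreated tumor 2, below the 3 other untreated tumors (6032 to 6493). *Sdc1* was at 55098 in NAM-treated tumor 2, above the 3 other treated tumors (1457 to 9142). *Alk* was at 564 in NAM-treated tumor 1, above the 3 other treated tumors (18.3 to 93.0). Groups of 3 AT3 tumors were too small for this rule.

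The effect of NAM differed between models for 2 members by the interaction term of limma. For *Ptprz1* the log2 fold change in AT3 tumors exceeded that in M/D-driven tumors by 3.06, and for *Sdc3* by 1.14, both past the threshold of 0.05 before adjustment. Neither passed the adjustment over 22710 genes (adjusted p = 0.30 and 0.32 by limma), and neither was called with the trend in length and GC content removed. *Ptprz1* was lower with NAM in 4 of 4 M/D-driven tumors than in each untreated one, and *Sdc3* was higher in 3 of 3 AT3 tumors. Groups did not overlap for 4.43% of the genes tested in the M/D model and 22.6% in the AT3 model.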

How the results depend on the processing

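*Ptprz1* was called lower with NAM in the M/D model under each alternative run. The 7 calls between untreated models were 6 with a minimum mean of 50, where *Alk* was not tested, and 6 with the trend in length and GC content removed, where *Sdc3* and *Lrp1* lost and *Ncl* gained a call, and 7 otherwise. Members called in M/D-driven tumors were 2 by DESeq2 (*Alk* in addition), and those whose effect differed between models were 1 by edgeR, 0 with the trend in length and GC content removed and 0 when this was done in experiments 1 and 3 only. Genes of the 5 lists called higher in M/D-driven tumors (1) were 2 by edgeR, 3 by DESeq2, 0 with the replicate block, 2 with all 14 tumors in 1 fit and 2 in experiment 1 with the trend removed, and those called lower (6) were then 2. In AT3 tumors those higher (23) were 12 with the trend removed, and those lower (4) were 2 with TMM factors and 1 with all 14 tumors in 1 fit. The exact permutation p of *Ptprz1* was 0.057 within experiment 1, where the smallest possible was 0.029. The causes were not tested.

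The sign of log2 fold changes turned as follows. In M/D-driven tumors *Ptn* was at 0.30 by edgeR, 0.33 by DESeq2, 0.75 in experiment 1 and 0.77 there with the trend removed, *Sdc3* at −0.0046 in experiment 1, and *Ncl* at −0.31 in experiment 1 and −0.29 there with the trend removed. With the trend removed in AT3 tumors, *Mdk* was at 0.18 (−0.36 before), *Sdc1* at −0.18, *Lrp1* at −0.49 (0.50 before) and *Ncl* at −0.37. The difference of effects for *Lrp1* was −0.50 with the trend removed and −0.67 in experiments 1 and 3 only with the trend removed, and that for *Ncl* was −0.025 by DESeq2, −0.45 with the trend removed and −0.047 in experiments 1 and 3 only with the trend removed. *Ncl* between untreated models was at 0.083 with TMM factors, 0.032 by edgeR and 0.040 with the replicate block. TMM factors moved the median of all genes in this comparison from 0.04 to 0.16.

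With each tumor left out in turn, members called were 1 to 2 in M/D-driven tumors, 1 to 3 in AT3 tumors, 0 to 2 for the difference between models and 7 to 7 between untreated models. Genes of the lists were 0 to 2 higher and 2 to 10 lower in M/D-driven tumors, and 11 to 38 higher and 1 to 5 lower in AT3 tumors. In M/D-driven tumors log2 fold changes went from −0.64 to 0.75 for *Ptn*, −0.27 to 0.98 for *Mdk*, −0.17 to 0.22 for *Sdc3*, −0.28 to 0.068 for *Sdc4*, −0.23 to 0.39 for *Lrp1* and −0.31 to 0.28 for *Ncl*. *Sdc1* in AT3 tumors went from −0.095 to 0.23, the difference of effects for *Ncl* from −0.018 to 0.57, and *Ncl* between untreated models from −0.18 to 0.17.

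Tumors with the same replicate number were not clearly paired, and for AT3 tumors the values do not settle this. Deviations of tumors with the same number correlated at 0.11, −0.44, −0.22 and −0.19 in M/D-driven tumors, at 0.13, 0.26 and −0.16 in AT3 tumors and at −0.06, −0.05 and −0.04 between untreated models. With the replicate block, 1 member was called in M/D-driven tumors, 1 in AT3 tumors (*Sdc3*, adjusted p = 0.036 by limma), 2 for the difference between models and 7 between untreated models, as without it, and 28 list genes were higher in AT3 tumors. In AT3 tumors the replicate block brought 1296 of the 19281 genes within 0.05 after adjustment by limma, *Sdc3* among them. Depth limits *Alk* in AT3 tumors, and 3 or 4 tumors a group limit the rest.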
